A study of Oryza sativa with 39 samples.

Results

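The 90 genes described here were expressed in the leaves of both genetically engineered (GE) rice lines KMD1 and KMD2 and had no read in the leaves of XS11, the variety from which both GE lines were made. They were taken from 109715 listed gene identifiers, of which 44421 were above 0 in at least 1 library. A gene was taken when its level was at least 0.5 FPKM in each of the 6 KMD libraries and 0 in each of the 3 XS11 libraries. FPKM is a read number corrected for gene length and library size. Of the 16227 genes on in both KMD lines, the 90 were 0.555%. Because KMD and XS11 values chose the genes, the differences between KMD lines and XS11 are given as a description without a test. "Silent" means listed at 0 FPKM, and "on" means at least 0.5 FPKM in all 3 libraries of a line.

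Cultivated rice has the subspecies Geng/Japonica (GJ) and Xian/Indica (XI), whose varieties differ in which genes they carry as well as in their alleles. A line bred by crossing carries segments of each parent, so a gene that one parent lacks or does not use can be on in the offspring. A transformed line and its untransformed near isoline share most of their genome, yet seed stocks kept apart, tissue culture and the insertion itself can leave differences between them.

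KMD1 and KMD2 are GJ lines obtained from XS11 by separate Agrobacterium insertions. Both are homozygous for a synthetic cry1Ab, an insecticidal toxin gene of bacterial origin, driven by the ubiquitin promoter of maize. T202, CJ03 and JH1 are GJ varieties bred conventionally from crosses of XS11 with other varieties. T1C-19 (a cry1C gene behind the maize ubiquitin promoter) and HH1 (a fused cry1Ab/Ac gene behind the rice actin1 promoter) are GE lines made from the XI line MH63. XIY63, XXY63, SY63 and JY63 are XI lines from crosses with MH63, and 1 of the labels of JY63 reads JY6. MH63 and XS11 are the untransformed parents. Each of the 13 lines had 3 libraries, each from leaf sections of 5 plants pooled at 5 weeks, at tillering. Each KMD line is a single event, so what the KMD libraries share cannot be told apart from what these 2 events and their seed stocks share. In whole leaf sections, fewer cells of a type and less RNA per cell cannot be told apart.

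The libraries held 3989871 to 8318607 reads on genes, as recovered from the FPKM. These totals lie several-fold below the sequencing depth that the study describes, and the gap was not resolved, so each read number and 3-read level below carries this doubt. The 6 KMD libraries had 5337381 to 6361384 reads and 26855 to 28446 genes above 0, against 5140897 to 5445599 reads and 25303 to 26027 genes above 0 in XS11. On a gene of 1 kb each read was worth 0.137 to 0.176 FPKM in the KMD libraries and 0.213 to 0.217 FPKM in XS11. XS11 thus had fewer genes above 0 without overlap with the KMD lines, and the part of this difference in the membership of weakly read genes was not tested. Identifiers written down as leaf markers could not be matched to gene names in any table at hand. Of 6 such identifiers, OS12G0291100 was above 0 in all 39 libraries, OS12G0292400 and OS11G0707000 were at 0 in all of them, and the other 3 never passed 1.39 FPKM. Whether these identifiers name the intended genes could not be checked, so the leaf label was not tested, and a gene listed at 0 need not be without transcript. The summed level of the 6 was 37.9 to 94.1 FPKM in the KMD libraries and 119 to 314 FPKM in XS11. Of 2 endosperm identifiers the sum was 1.72 to 3.18 FPKM in the KMD libraries and 0.131 to 1.19 FPKM in XS11, and 2 root identifiers were at 0 in both. The part of these markers in the results was not tested.

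The 90 genes fell into 3 kinds of identifier. There were 26 reference loci, whose names give chromosome and order, 31 predicted genes, which the authors numbered and for which the files give no position, and 33 identifiers that begin with EPlOSAG. No table at hand paired any of them with a name or function. Reference loci were 28.9% of the 90 and 58.6% of all genes on in both KMD lines, predicted genes were 34.4% and 36.7%, and EPlOSAG identifiers were 36.7% and 4.70%. EPlOSAG identifiers were thus far more common among the 90 than among all genes on in the KMD lines.

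The kinds differed in length and in the reads behind their values. The EPlOSAG genes were 27 to 190 bases long, with a median of 66, against medians of 1438 bases for the reference loci and 1411 for the predicted genes. On so short a gene 1 read gives a high FPKM. The fewest reads in any KMD library had a median of 1 for EPlOSAG genes, 16 for reference loci and 24 for predicted genes. At least 1 KMD library had 3 reads or fewer in 29 EPlOSAG genes, 4 predicted genes and 2 reference loci. A single library at 0 can hide a level of up to about 3 reads, so each KMD mean was set against the FPKM of 3 reads per XS11 library. With all 3 XS11 libraries at 0 this limit is a cautious one. By this measure 52 of the 90 genes were at least 2-fold higher in KMD lines, and 30 were at least 10-fold higher. For 25 genes, of which 24 were EPlOSAG genes, the KMD mean lay under the 3-read level of XS11. For these genes this measure does not bound the difference from XS11. These bounds cover counting error only.

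**Figure D1:**
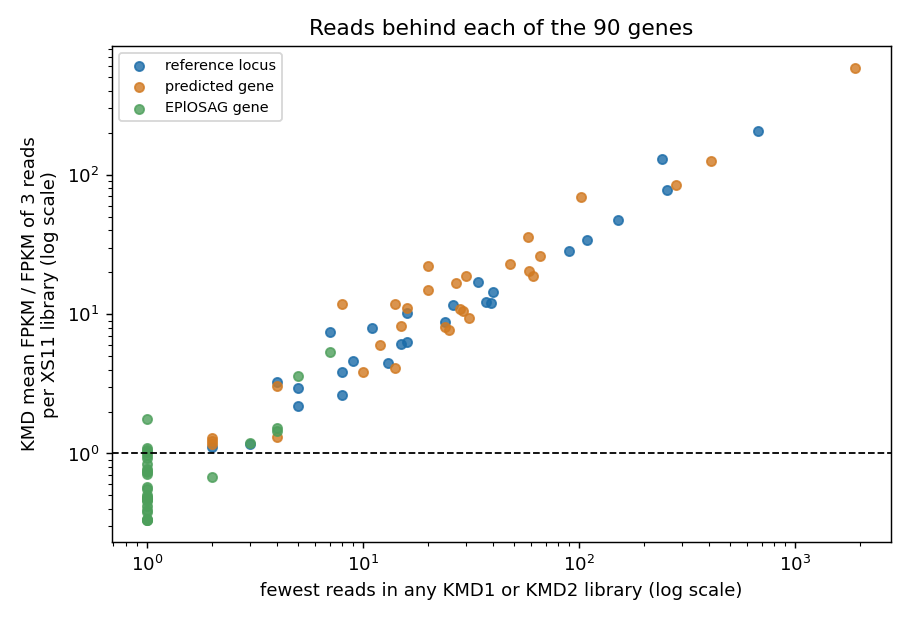
Each point is 1 of the 90 genes, with the fewest reads in any of the 6 KMD1 and KMD2 libraries on the horizontal axis and the KMD mean FPKM over the FPKM of 3 reads per XS11 library on the vertical axis, both on log scales; colours give the kind of identifier and the dashed line marks a ratio of 1. The EPlOSAG genes gather at the lower left with 1 to 7 reads, and 25 genes lie under the line.

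The level in KMD lines varied widely. The mean over the 6 KMD libraries had a median of 5.31 FPKM and reached from 0.755 to 128 FPKM, with 22 genes at 10 FPKM or more and 4 genes at 50 FPKM or more. Predicted gene 42367 was the highest, with 141, 129 and 122 FPKM in KMD1 and 119, 99.5 and 158 FPKM in KMD2. It rested on 1897 to 2618 reads per KMD library, and its KMD mean stood at least 580-fold above what 3 reads per XS11 library would give. Next came predicted gene 27299, with 114, 80.4 and 89.5 FPKM in KMD1 and 82.2, 74.6 and 95.9 FPKM in KMD2. The highest reference locus was OS04G0372400, with 90.7, 94.0 and 106 FPKM in KMD1 and 92.7, 70.7 and 78.7 FPKM in KMD2, at least 208-fold above the 3-read level of XS11. In all 3 genes the libraries of the 2 KMD lines overlapped. The highest EPlOSAG gene was EPlOSAG00000047800, 60 bases long, with 22.4, 20.2 and 43.9 FPKM in KMD1 and 61.7, 73.9 and 123 FPKM in KMD2, which stood for 7 to 42 reads.

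**Figure D2:**
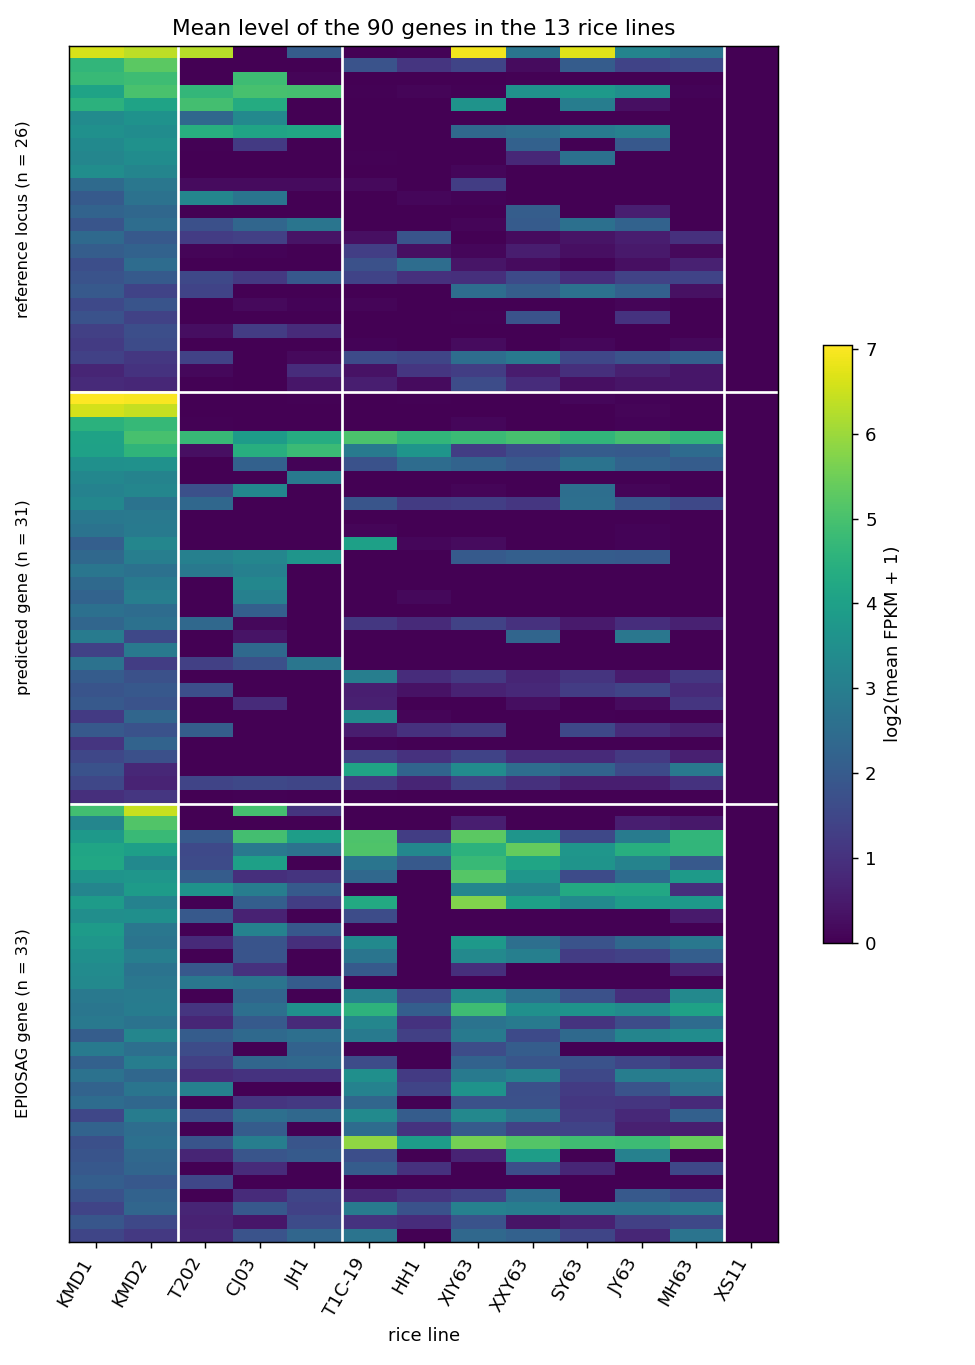
Mean FPKM of each of the 90 genes (rows) in the 13 rice lines (columns), as log2(mean FPKM + 1), with rows grouped by kind of identifier and ordered by KMD mean within each kind. The KMD columns are filled in every row, XS11 is at 0 in every row, and the pattern across the other 10 lines differs from row to row.

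Most of the 90 genes were also on in lines other than KMD1 and KMD2. Across the other 10 lines, 75 genes were on in at least 1 line and 15 in none. Of the 75, 30 were on in both conventional GJ and XI lines, 16 in conventional GJ lines but in no XI line, and 29 in XI lines but in no conventional GJ line. Only 2 genes were on in all 10 other lines, and 24 genes were on in exactly 1. The rule used no library of these 10 lines, but every comparison of them with KMD or XS11 levels uses values that it did.

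Of the 15 genes on in no other line, 5 were reference loci, 8 were predicted genes and 2 were EPlOSAG genes. They included the most strongly expressed of the 90. Predicted gene 42367 had at most 2 reads in any of the 30 libraries of the other lines, and 24 of these libraries were at 0. Predicted gene 27299 had a single read in 1 JY63 library and none in the other 29. Predicted gene 37632 had 23.2, 20.4 and 21.7 FPKM in KMD1 and 23.7, 27.5 and 24.2 FPKM in KMD2, and at most 5 reads in any other library. These 3 genes were therefore strongly read in the KMD lines and at or near 0 everywhere else.

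Predicted gene 7423 was the only member with no read in any of the 30 other libraries. It had 6.60, 5.75 and 5.65 FPKM in KMD1 and 7.45, 5.84 and 5.47 FPKM in KMD2, from 31 to 54 reads. OS07G0103000 was the highest reference locus on in no other line, with 11.4, 11.8 and 6.81 FPKM in KMD1 and 9.53, 6.42 and 8.51 FPKM in KMD2 and 1 read in 1 XIY63 library. EPlOSAG00000032755 had 7.72, 9.54 and 8.06 FPKM in KMD1 and 30.2, 46.3 and 25.8 FPKM in KMD2, with 1 read in each of 3 other libraries. Over the whole list, 18 genes had at most 3 reads in each of the 30 other libraries.

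Among the conventional GJ lines, 19 of the 90 genes were on in T202, 34 in CJ03 and 15 in JH1. Silent genes numbered 37 in T202, 30 in CJ03 and 45 in JH1, and the rest lay in between. The order of T202 and CJ03 depended on this definition, since 34 genes were on in T202 when 2 of its 3 libraries sufficed. Among all 14084 genes that were at 0 in XS11 and above 0 elsewhere, 2.18% were on in T202, 2.61% in CJ03 and 1.48% in JH1. That background includes genes with very few reads and is not matched on level. In all, 46 genes were on in at least 1 of the 3 lines. T202 alone held 7 of them, CJ03 alone 18 and JH1 alone 5, while 6 were on in all 3.

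The reference loci OS04G0355401 and OS08G0226600 had similar levels in the KMD lines and CJ03 and were at or near 0 in JH1. In T202 the first was at 0, and the second was on but below every KMD library. OS04G0355401 had 24.4, 28.4 and 24.4 FPKM in KMD1, 28.3, 26.9 and 29.4 FPKM in KMD2 and 26.6, 30.6 and 25.9 FPKM in CJ03. It stayed at or below 0.107 FPKM in every library of T202, JH1 and the XI lines. OS08G0226600 had 8.64, 8.84 and 11.1 FPKM in KMD1, 11.6, 10.9 and 10.6 FPKM in KMD2, 4.56, 4.38 and 3.46 FPKM in T202 and 8.59, 9.32 and 9.08 FPKM in CJ03. JH1 was at 0 and the XI lines had a single library above 0, at 0.0501 FPKM. Outside the KMD lines, OS04G0355401 was thus on in CJ03 alone and OS08G0226600 in T202 and CJ03.

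OS11G0606400 was on in all 3 conventional GJ lines. It had 11.6, 16.6 and 20.2 FPKM in KMD1, 23.3, 34.6 and 37.4 FPKM in KMD2, 21.6, 26.3 and 25.0 FPKM in T202, 24.8, 33.5 and 34.3 FPKM in CJ03 and 28.5, 30.7 and 31.8 FPKM in JH1. Among XI lines it was on in XXY63, SY63 and JY63, at 9.60 to 14.3 FPKM, and at or below 0.214 FPKM in T1C-19, HH1, XIY63 and MH63. OS07G0216100 had 12.5, 10.1 and 9.07 FPKM in KMD1 and 9.81, 8.30 and 11.4 FPKM in KMD2, with 10.9 to 25.7 FPKM in the conventional GJ lines. It was on at 3.18 to 10.9 FPKM in XIY63, XXY63, SY63 and JY63 and at 0 in T1C-19, HH1 and MH63. In both loci the XI lines made from MH63 by transformation were off like MH63 itself, and the XI lines from crosses with MH63 were mostly on.

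OS04G0458000 was split within both subspecies. It had 30.3, 15.2 and 20.8 FPKM in KMD1, 16.3, 16.9 and 14.4 FPKM in KMD2, 34.3, 30.2 and 25.0 FPKM in T202 and 17.6, 21.3 and 18.6 FPKM in CJ03, against 0 in all JH1 libraries. XIY63 had 11.9, 7.55 and 14.1 FPKM and SY63 5.40, 10.1 and 5.23 FPKM, while no library of the other XI lines passed 0.382 FPKM.

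**Figure D3:**
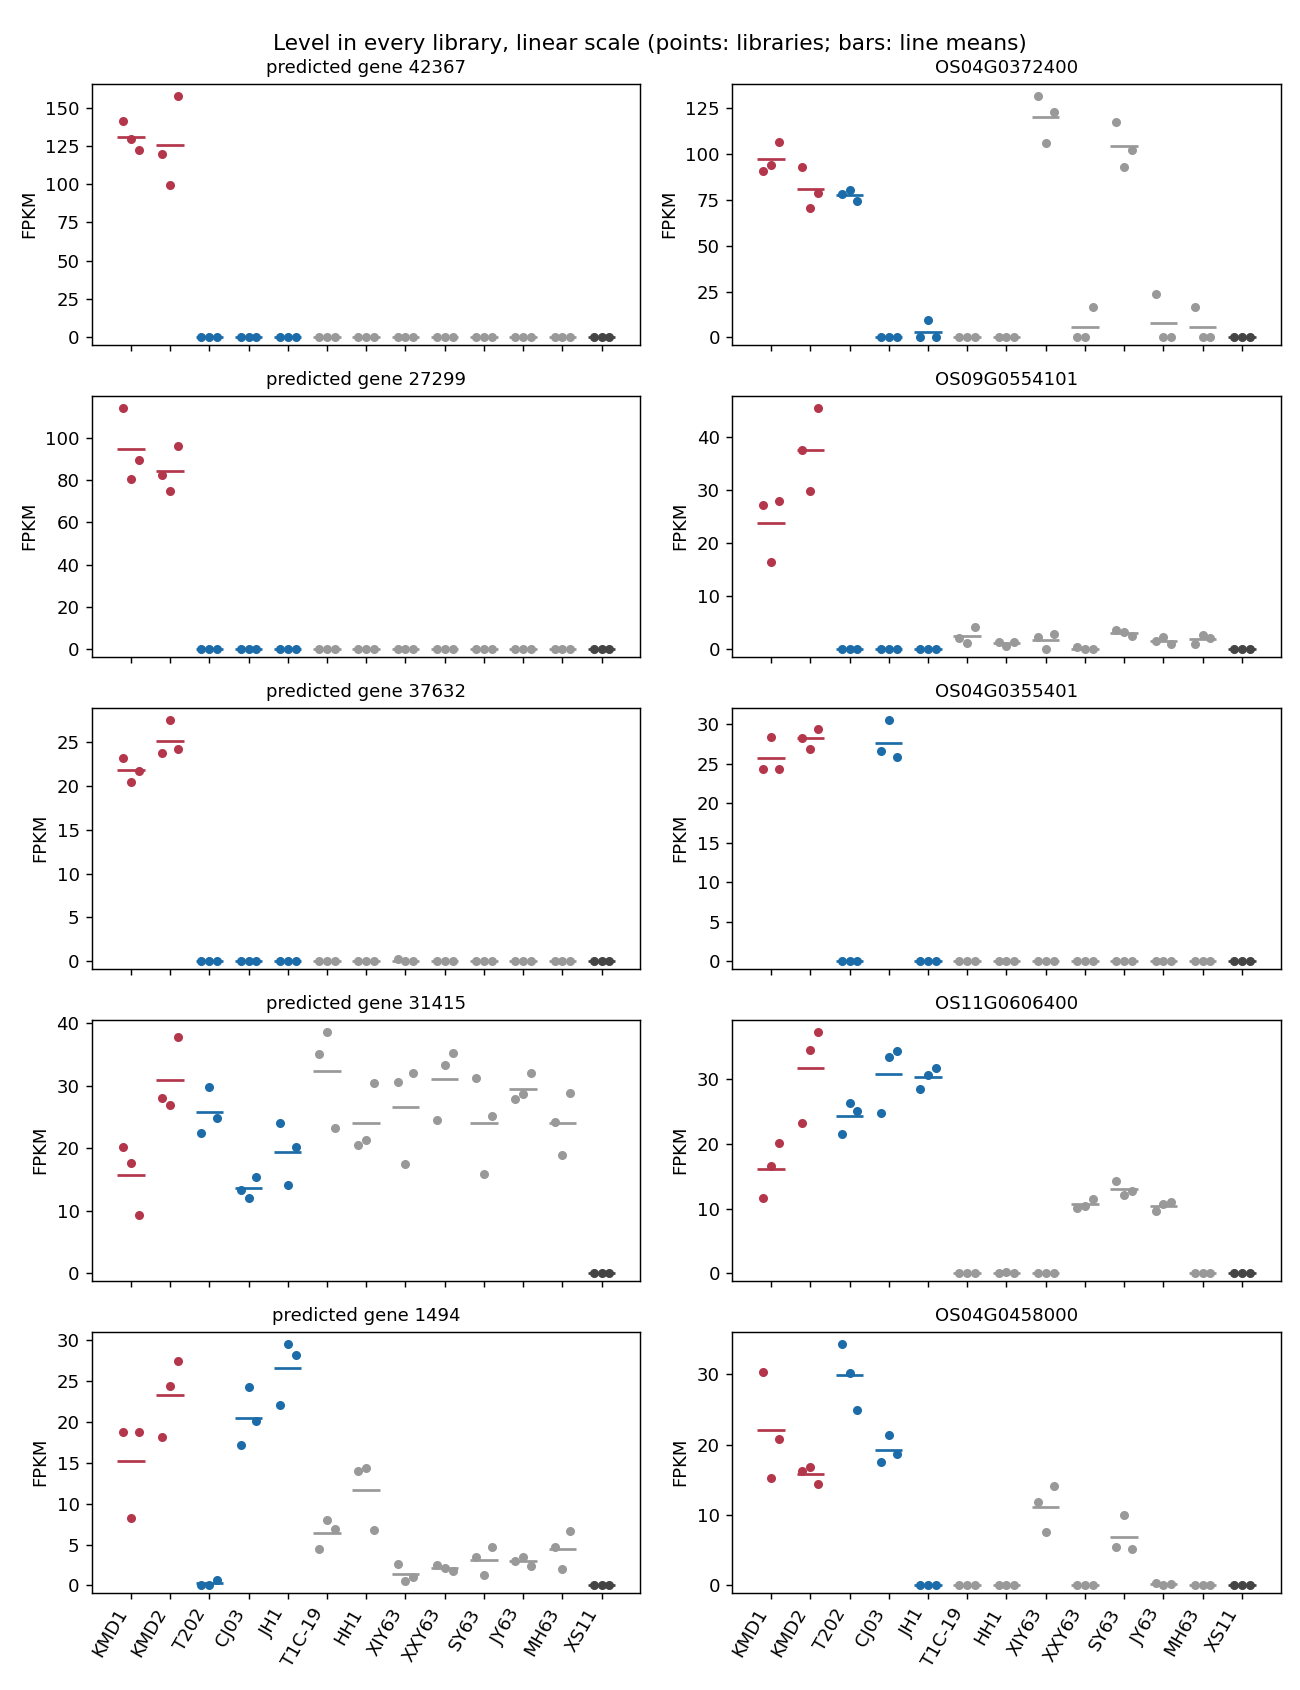
FPKM of the 5 predicted genes and 5 reference loci with the highest KMD mean in each of the 39 libraries, on linear axes; points are libraries, short bars are line means, red marks the KMD lines, blue the conventional GJ lines, light grey the XI lines and dark grey XS11. Predicted genes 42367 and 27299 are high in the KMD lines only, OS04G0355401 in the KMD lines and CJ03, and predicted gene 31415 in every line except XS11.

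In the XI lines, which do not descend from XS11, 59 of the 90 genes were on in at least 1 of 7 lines. The background was all 14084 genes at 0 in XS11 and above 0 elsewhere, which is not matched on level. Of this background, 7.73% were on in T1C-19, 5.76% in HH1, 8.03% in XIY63, 7.41% in XXY63, 6.41% in SY63, 6.88% in JY63 and 6.92% in MH63. Of the 90 genes, 33 were on in T1C-19, 16 in HH1, 34 in XIY63, 37 in XXY63, 23 in SY63, 28 in JY63 and 28 in MH63. The order of the lines depended on the EPlOSAG genes, of which 19 were on in T1C-19, 2 in HH1, 18 in XIY63, 18 in XXY63, 4 in SY63, 10 in JY63 and 17 in MH63. Of the 26 reference loci, 10 were on in XXY63 and in SY63, 9 in JY63, 8 in XIY63, 6 in HH1, 4 in T1C-19 and 3 in MH63. Hence the lines from crosses with MH63 had more of the reference loci on than MH63 and its GE lines, a description over few loci without a test. The 31 predicted genes were without this split. Of them, 10 were on in T1C-19, 9 each in XXY63, SY63 and JY63, and 8 each in HH1, XIY63 and MH63.

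**Figure D4:**
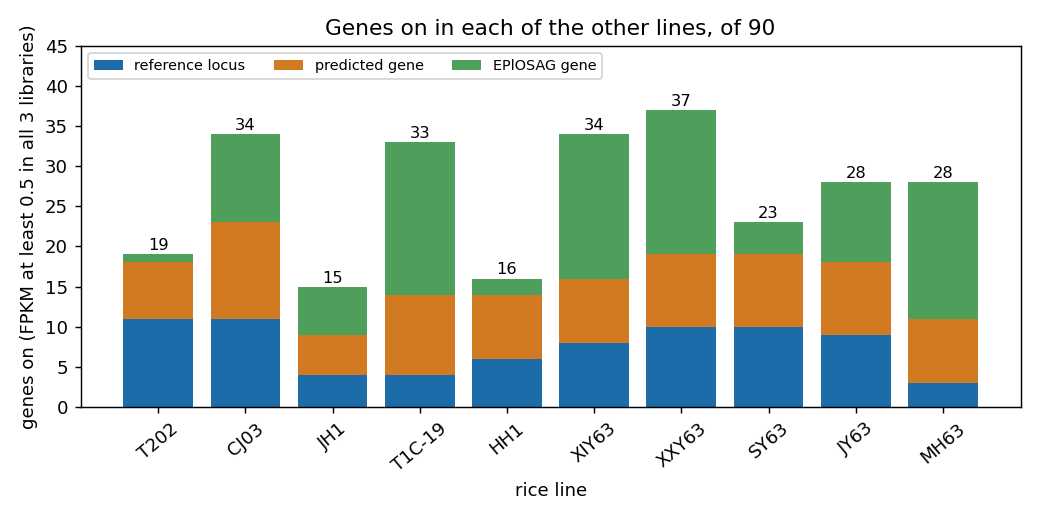
Number of the 90 genes on in each of the other 10 lines (at least 0.5 FPKM in all 3 libraries), stacked by kind of identifier. Totals reach from 15 in JH1 to 37 in XXY63, and EPlOSAG genes make up 17 of 28 in MH63 but 1 of 19 in T202.

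Predicted gene 31415 was on in all 10 other lines. It had 20.3, 17.6 and 9.39 FPKM in KMD1 and 28.0, 27.0 and 37.8 FPKM in KMD2, 12.1 to 29.9 FPKM in the conventional GJ libraries and 15.9 to 38.6 FPKM in the XI libraries. XS11 was the exception among the 13 lines. OS05G0297800, named after its values were seen, was the other gene on everywhere, at 0.560 to 3.02 FPKM in the other lines and 1.17 to 3.91 FPKM in the KMD lines. Predicted gene 1494 was on in 9 lines, with 18.8, 8.29 and 18.8 FPKM in KMD1 and 18.2, 24.4 and 27.4 FPKM in KMD2. T202, where it was not on, had 0, 0 and 0.696 FPKM, against 17.2 to 24.3 FPKM in CJ03, 22.1 to 29.6 FPKM in JH1 and 0.589 to 14.4 FPKM in the XI libraries. OS09G0554101, at 16.4 to 45.5 FPKM in the KMD lines, was at 0 in all conventional GJ libraries and never above 4.13 FPKM in the XI lines. Its KMD levels were therefore well above those of any other line that had it on. EPlOSAG00000020438 had 2.90, 20.9 and 15.1 FPKM in KMD1 and 35.5, 34.3 and 9.08 FPKM in KMD2, on 1 to 15 reads, and was on in CJ03 and 4 XI lines.

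OS04G0372400 differed between libraries of the same line. It was on in T202 with 78.3, 80.4 and 74.4 FPKM, in XIY63 with 132, 106 and 123 FPKM and in SY63 with 118, 92.9 and 102 FPKM. In 4 other lines a single library stood out: JH1 replicate 2 had 9.32 FPKM against 0 and 0, XXY63 replicate 3 16.8 FPKM against 0.106 and 0, JY63 replicate 1 23.9 FPKM against 0.113 and 0, and MH63 replicate 1 16.4 FPKM against 0 and 0. CJ03 was at 0 throughout, and T1C-19 and HH1 did not pass 0.156 FPKM. Each library is a pool of 5 plants, and whether single plants in these pools differ was not tested.

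The names of the reference loci give their order along each chromosome. Chromosome 4 held 6 of the 26 loci (23.1%, against 8.77% of all reference loci on in both KMD lines), chromosome 7 held 5 (19.2%, against 7.72%) and chromosome 8 held 4 (15.4%, against 6.58%). Chromosome 1 held 1 locus (3.85%, against 13.7%), and chromosomes 6 and 12 held none. Loci were placed in 1 group when at most 10 other listed loci lay between them. This gave 3 groups with 7 of the 26 loci. No such grouping was made for other loci, so this number has no share beside it.

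The group on chromosome 4 held OS04G0370300, OS04G0372201 and OS04G0372400, with 9 other loci among them, of which 7 were above 0 in some library and 2 were on in both KMD lines and in XS11. OS04G0372201 had 7.55, 9.85 and 7.87 FPKM in KMD1 and 9.30, 11.5 and 8.48 FPKM in KMD2. OS04G0370300 had 8.37, 9.97 and 8.82 FPKM in KMD1 and 10.02, 9.35 and 13.3 FPKM in KMD2. The 3 neighbours did not share a pattern outside the KMD lines. OS04G0372201 was on in SY63 alone, at 4.01 to 5.70 FPKM, while OS04G0370300 was on in CJ03, XXY63 and JY63 at 0.969 to 4.44 FPKM and at 0 in SY63. OS04G0372400 was on in T202, XIY63 and SY63, as given above.

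The pair on chromosome 7, OS07G0131500 and OS07G0131600, consists of adjacent listed loci, both on in XXY63 outside the KMD lines. OS07G0131600 had 3.51, 4.25 and 3.39 FPKM in KMD1, 4.29, 5.58 and 2.38 FPKM in KMD2 and 3.00, 2.93 and 3.64 FPKM in XXY63. OS07G0131500 had 1.41, 3.27 and 2.66 FPKM in KMD1, 1.87, 1.68 and 1.38 FPKM in KMD2 and 2.60, 2.35 and 2.55 FPKM in XXY63. In JY63 OS07G0131500 was on at 0.527 to 1.37 FPKM, and OS07G0131600 was not, at 0.328 to 0.681 FPKM. All conventional GJ libraries were at 0 for both. The pair on chromosome 10, OS10G0395100 and OS10G0395150, was low, with KMD means of 0.841 and 0.755 FPKM. CJ03 was at 0 for both loci, and XIY63 had 1.39 to 1.43 FPKM for OS10G0395100 and 1.65 to 2.65 FPKM for OS10G0395150.

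Most of the loci next to the members were not members. Still, 6 of the 26 member loci lay in 3 pairs of adjacent listed loci. Members were 0.274% of all reference loci on in both KMD lines, and no test was made. Of 46 listed loci adjacent to a member and not members, 18 were at 0 in all 39 libraries and 6 were on in both KMD lines and in XS11. A further 2 were on in both KMD lines and not on in XS11. Of these, OS03G0115800 had a KMD mean of 152 FPKM and an XS11 mean of 0.151 FPKM. OS11G0610900, named after its values were seen, had close means of 0.915 FPKM in the KMD lines and 0.756 FPKM in XS11. At OS08G0226666, which follows OS08G0226600 and was named after its values were seen, the difference ran the other way, with a KMD mean of 0.0792 FPKM and an XS11 mean of 4.47 FPKM.

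Between the GE lines, KMD2 and KMD1 means lay within 2-fold for most of the 90 genes, a smaller share than over all genes on in both lines. The rule required each gene to be on in both lines, so part of this likeness was set by the choice. The KMD2 mean over the KMD1 mean had a median of 1.11, against 1.004 over all genes on in both lines. It lay within 2-fold for 72 of the 90 genes (80.0%, against 90.9% of all genes on in both lines), above 2 for 12 and below 0.5 for 6, with a range of 0.266 to 4.04. For 24 genes the 3 KMD2 and 3 KMD1 libraries did not overlap, 17 of them higher in KMD2, and of all genes on in both lines 29.4% did not overlap. EPlOSAG00000032755 had the highest ratio, with the values given above. The 90 genes were 57.3% of the 157 genes on in KMD1 and silent in XS11, and 32.6% of the 276 genes on in KMD2 and silent in XS11.

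Tests were made only between lines whose libraries did not choose the genes. In each of 5 comparisons the 6 libraries were fitted with limma on log2(FPKM + 1), and a gene was called a differentially expressed gene (DEG) at a Benjamini-Hochberg adjusted p below 0.05 over all genes tested and a fold change of at least 2. Genes needed 0.5 FPKM in at least 3 of the 6 libraries, so a gene on in 1 line alone passed only through that line. The counts are therefore not evidence that the 90 genes differ more often than others. The medians given below are likewise no evidence of a shift, since the filter sets which of the 90 genes enter. With 1 library left out the median over these genes changed sign in T202/JH1 and CJ03/JH1 and kept it in the other comparisons. It went from 0.13 to -0.69 in T202/JH1 without T202 replicate 1, and from 0.81 to -0.23 in CJ03/JH1 without CJ03 replicate 2. The comparisons share lines: T202, CJ03 and JH1 each enter 2 of them, and MH63 enters 2.

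In T202 against JH1, 37 of the 90 genes passed the filter and 13 were DEGs, 11 higher and 2 lower in T202, where 9.78% of all genes tested were DEGs (5.57% higher and 4.21% lower). Among the 11 was EPlOSAG00000021593, named after its values were seen, with 1 read in each T202 library and 0 in JH1. Its T202 mean of 2.81 FPKM lay under the FPKM of 3 reads per JH1 library, 9.13 FPKM. The median log2 difference was 0.13 over the 37 genes and -0.03 over all genes tested. OS04G0372400 had 78.3, 80.4 and 74.4 FPKM in T202 and 0, 9.32 and 0 FPKM in JH1, a log2 difference of 5.18 ± 0.83 (SE, adjusted p = 0.00678). OS04G0458000, at 25.0 to 34.3 FPKM in T202 and 0 in JH1, differed by 4.94 ± 0.22 (adjusted p = 5.95e-06), at least 24.2-fold higher. Predicted gene 1494 was lower in T202, with 0, 0 and 0.696 FPKM against 22.1, 29.6 and 28.3 FPKM in JH1 (log2 difference -4.53 ± 0.28, adjusted p = 3.7e-05). Predicted gene 45261 was at 0 in T202 and at 7.37, 6.46 and 4.95 FPKM in JH1 (-2.85 ± 0.24, adjusted p = 0.000241). None of these 4 genes had overlapping libraries. The count was 3 without any 1 of the T202 libraries, and 9 to 14 when the minimum was then lowered to 2 libraries. Without JH1 replicate 2 or 3 it was 8, and 9 with the lowered minimum, and the cause was not tested. Over all genes the 2017 DEGs became 836 without JH1 replicate 2, 1113 without JH1 replicate 3 and 1147, 1218 and 1071 without T202 replicate 1, 2 and 3, so the background share moved with single libraries as well.

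In T202 against CJ03, 48 of the 90 genes passed and 16 were DEGs, 4 higher and 12 lower in T202, with 8.18% DEGs among all genes tested (4.23% higher and 3.94% lower). The median log2 difference was -0.79 over the 48 genes and 0.02 over all genes tested. OS04G0372400 was at 0 in CJ03 and at least 215-fold higher in T202 (log2 difference 6.30 ± 0.16, adjusted p = 8.42e-07). Predicted gene 42849 had 3.86, 5.19 and 3.50 FPKM in T202 and 0.301, 0 and 0 FPKM in CJ03 (2.23 ± 0.26, adjusted p = 0.00169). Both were higher in T202 in every library. EPlOSAG00000047800 was at 0 in T202 and had 22.5, 29.5 and 39.5 FPKM in CJ03, from 8 to 12 reads (-4.94 ± 0.34, adjusted p = 8.06e-05). OS04G0355401 was at 0 in T202 and at 26.6, 30.6 and 25.9 FPKM in CJ03 (-4.84 ± 0.18, adjusted p = 2.93e-06). Among the 12 genes lower in T202 were also predicted genes 30889, 38772, 41871 and 43868, named after their values were seen, which were at 0 in every T202 library. EPlOSAG00000022254, also named after its values were seen, was another of the 12. It was at 0 in T202, and its CJ03 mean of 7.73 FPKM lay under the FPKM of 3 reads per T202 library, 8.32 FPKM. Without 1 CJ03 library the count was 4 to 6, and 12 to 14 with a minimum of 2 libraries. Without T202 replicate 2 or 3 it was 9, with none higher in T202, and 14 and 13 with the lowered minimum. Without T202 replicate 3 the genes lower in T202 numbered 9 under either minimum, and the cause was not tested. Over all genes the 1715 DEGs became 860 and 546 without CJ03 replicate 1 and 2, and 739, 792 and 646 without T202 replicate 1, 2 and 3.

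In CJ03 against JH1, 40 of the 90 genes passed and 13 were DEGs, 12 higher and 1 lower in CJ03, with 6.64% DEGs among all genes tested (3.24% higher and 3.4% lower). The median log2 difference was 0.81 over the 40 genes and -0.01 over all genes tested. OS04G0355401 had 26.6, 30.6 and 25.9 FPKM in CJ03 and 0.103, 0 and 0.107 FPKM in JH1 (log2 difference 4.74 ± 0.18, adjusted p = 2.79e-06). OS04G0458000 had 17.6, 21.3 and 18.6 FPKM in CJ03 and 0 in JH1 (4.33 ± 0.22, adjusted p = 1.47e-05). The only gene lower in CJ03 was predicted gene 45261, at 0 in CJ03 and at 4.95 to 7.37 FPKM in JH1 (-2.85 ± 0.24, adjusted p = 0.000269), which also had no read in T202 or in any XI line. Without 1 CJ03 library the count was 2, and 13 to 15 with a minimum of 2 libraries. Over all genes the 1393 DEGs became 826 and 607 without CJ03 replicate 1 and 2, and 558 and 572 without JH1 replicate 2 and 3.

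In T1C-19 against MH63, 42 of the 90 genes passed and 4 were DEGs, all predicted genes and all higher in T1C-19, with 2.19% DEGs among all genes tested (1.8% higher and 0.388% lower). The median log2 difference was 0.49 over the 42 genes and 0.02 over all genes tested. Predicted gene 2520 had 15.3, 13.7 and 16.5 FPKM in T1C-19 and 0 in all MH63 libraries, at least 154-fold higher (log2 difference 4.01 ± 0.16, adjusted p = 1.48e-05). Predicted gene 8766 had 10.2, 8.07 and 9.53 FPKM in T1C-19 and 0, 0.0443 and 0 FPKM in MH63 (3.33 ± 0.17, adjusted p = 4.47e-05). These 2 genes were on in T1C-19, KMD1 and KMD2, which are all GE lines, and in none of the other 10 lines. They were among the 24 genes on in exactly 1 line besides KMD1 and KMD2. OS04G0355401, on in CJ03 alone besides the KMD lines, was another of them. EPlOSAG00000009889, EPlOSAG00000012824, EPlOSAG00000013251 and EPlOSAG00000021746, named after their values were seen, were also on in T1C-19 alone, on 1 to 3 reads per library. These EPlOSAG genes had reads in other lines as well, and none was a DEG here. EPlOSAG00000013251 had 6.89 FPKM in CJ03 replicate 2, against at most 5.77 FPKM in T1C-19. EPlOSAG00000012824 had 2 reads in each of 2 MH63 libraries. HH1, the fourth GE line, had at most 0.240 FPKM of predicted gene 2520 and at most 0.132 FPKM of predicted gene 8766. KMD1 and KMD2 had lower levels than T1C-19 without a test, at 2.49 to 10.4 FPKM for predicted gene 2520 and 0.973 to 5.20 FPKM for predicted gene 8766. Without 1 T1C-19 library the count was 1, and 3 with a minimum of 2 libraries. Over all genes the 452 DEGs became 258, 68 and 77 without T1C-19 replicate 1, 2 and 3 and 295 without MH63 replicate 3, and 205 to 420 with 1 library left out and the lowered minimum.

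In HH1 against MH63, 36 of the 90 genes passed and 12 were DEGs, 2 higher and 10 lower in HH1, with 17.6% DEGs among all genes tested (7.41% higher and 10.2% lower). The median log2 difference was -0.61 over the 36 genes and 0.04 over all genes tested. All 10 lower genes were EPlOSAG genes. EPlOSAG00000021095 was at 0 in HH1 and had 11.6, 12.4 and 15.1 FPKM in MH63, from 4 to 7 reads (log2 difference -3.80 ± 0.34, adjusted p = 0.000324), and its MH63 mean did not exceed the FPKM of 3 reads per HH1 library. The same held for EPlOSAG00000007867 (mean of 6.10 against 10.3 FPKM) and EPlOSAG00000044118 (3.31 against 8.21 FPKM), named after their values were seen. EPlOSAG00000020438 had 0, 4.32 and 0 FPKM in HH1 and 34.8, 19.03 and 17.1 FPKM in MH63 (-3.75 ± 0.67, adjusted p = 0.00412). OS02G0772100 was higher in HH1, with 5.04, 5.89 and 3.18 FPKM against 0.169, 0.786 and 0.705 FPKM in MH63 (1.87 ± 0.26, adjusted p = 0.00147). Predicted gene 1494 had 14.0, 14.4 and 6.76 FPKM in HH1 and 4.73, 2.01 and 6.67 FPKM in MH63 (1.25 ± 0.39, adjusted p = 0.0382), and this call was lost in 4 of 6 alternatives, and also without HH1 replicate 1, HH1 replicate 2, MH63 replicate 1 or MH63 replicate 2. HH1 had 3989871 to 4349957 reads and 23875 to 24288 genes above 0, the fewest of all lines, and the part of this in the lower EPlOSAG values was not tested. Fitted with voom on the recovered reads, 3 of the 90 genes were higher and 5 lower in HH1, so the number of lower genes depended on the tool. Without a filter on low values 1 was higher and 6 were lower. Without 1 MH63 library the count was 4, and 8 or 9 with a minimum of 2 libraries.

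**Figure D5:**
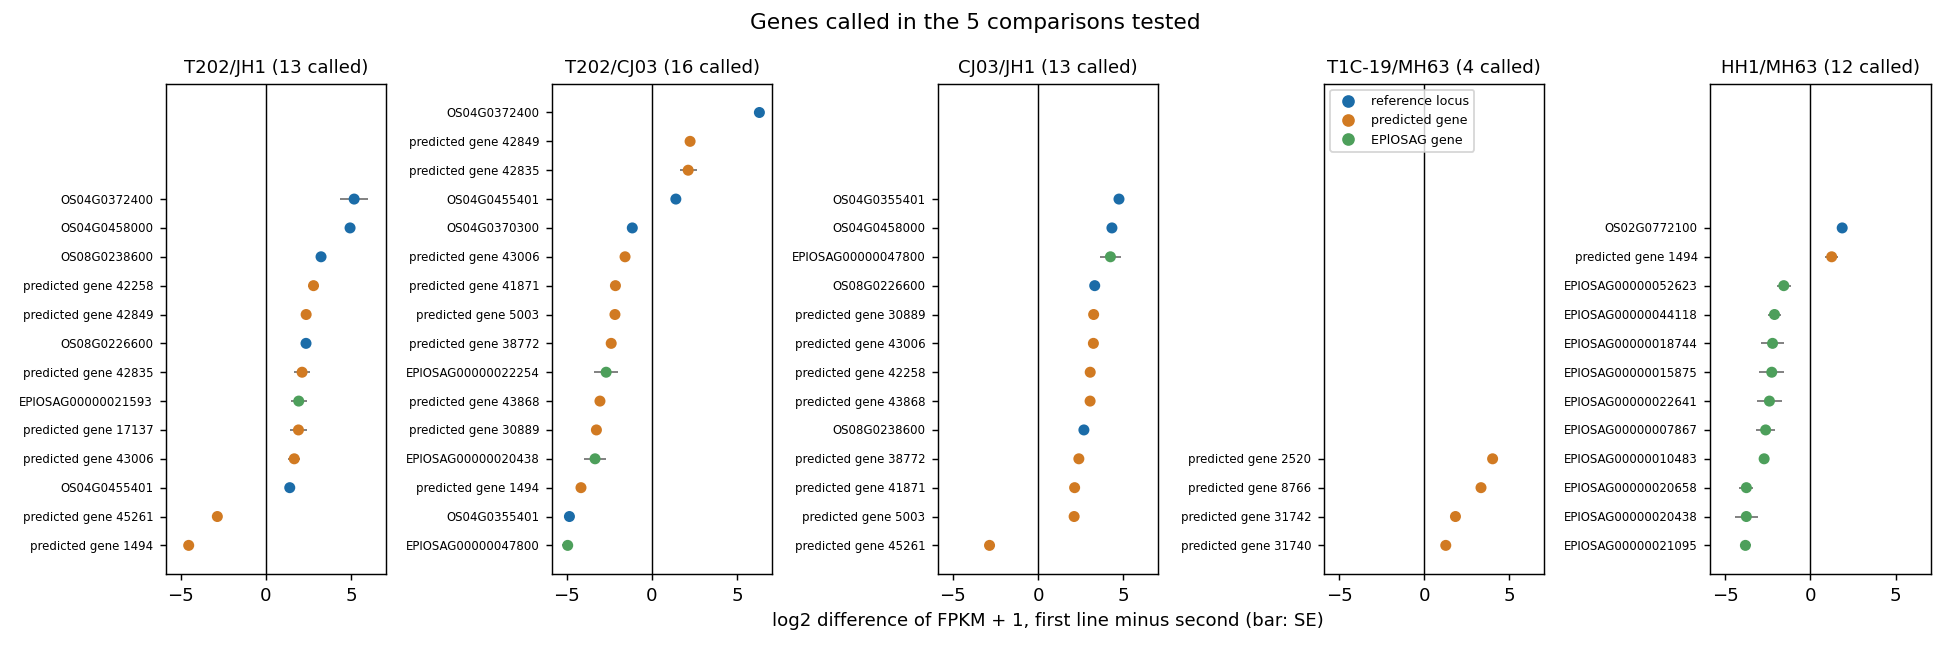
Log2 difference of FPKM + 1 (first line minus second) with its standard error for the genes called in T202/JH1, T202/CJ03, CJ03/JH1, T1C-19/MH63 and HH1/MH63, with 13, 16, 13, 4 and 12 genes; colours give the kind of identifier. In HH1/MH63 all 10 negative values belong to EPlOSAG genes, and in T1C-19/MH63 all 4 values are positive and belong to predicted genes.

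Membership turned on small values at its edges. Just inside the rule lay OS10G0395100, predicted gene 31740 and predicted gene 45907, whose lowest KMD library had 0.502, 0.539 and 0.553 FPKM. Just outside lay OS02G0235050, OS11G0605300 and predicted gene 38460, at 0 in XS11 and with a lowest KMD library of 0.486, 0.456 and 0.450 FPKM. A further 131 genes were on in both KMD lines and had exactly 1 XS11 library above 0. The highest of them, OS03G0115800, had 211, 149 and 54.9 FPKM in KMD1 and 125, 199 and 172 FPKM in KMD2 against 0, 0 and 0.454 FPKM in XS11, which was 3 reads, and it is the locus next to the member OS03G0115700. OS07G0217600 had a KMD mean of 71.5 FPKM and 6 reads in 1 XS11 library, and EPlOSAG00000030433 a KMD mean of 56.5 FPKM and 1 read. With a KMD minimum of 0.1 FPKM 147 genes would be members, and with a minimum of 1 FPKM 74. With at most 1 read allowed in each XS11 library 181 would be members, and without XS11 replicate 2 155. Apart from the minimum of 1 FPKM these changes loosen the rule, so the number could not fall. The part of XS11 depth in the list was not tested.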

How the data were processed

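Leaf RNA of 13 rice lines with 3 libraries each was sequenced. The authors aligned reads to IRGSP-1.0 with HISAT2 2.09, counted them per gene with featureCounts 1.5.0-p3 and deposited FPKM values, 1 set per library. The deposited FPKM contain a median-of-ratios scaling between libraries. Strand settings of the counting are not given in the sources used here, so overlapping genes and near-identical copies may share or lose reads.

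Values of a gene were whole multiples of 1 step in every library. Reads were recovered from these steps and whole gene lengths, and 100% of the values above 0 came out whole within 0.01. Read numbers and 3-read levels could be off by a common factor, since the totals lie several-fold below the described sequencing depth. Depth per library is given in the results.

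The 90 genes, the lists and the comparisons were chosen with earlier results of these data known. Differential expression was fitted on log2(FPKM + 1) using limma (3.58.1, with R 4.3.3). The variance trend was taken over mean log2 reads, with Benjamini-Hochberg adjustment over all genes tested. This scale understates changes of genes with low FPKM. It need not do so for short EPlOSAG genes, where few reads give a high FPKM. In HH1/MH63 the log2 difference of EPlOSAG00000021095 was -3.80, against -2.58 with voom, and that of EPlOSAG00000020438 -3.75, against -2.97. For EPlOSAG00000047800 in T202/CJ03 it was -4.94, against -4.33. The count test run as an alternative was limma's voom on the recovered reads. Other steps used Python 3.11.15 and pandas 2.3.3. The procedure was tested on simulated data whose changed genes were well read and at 5 FPKM or more. A first version without the 5 FPKM limit missed its recovery goal, and the limit was added after that, so the test speaks only for genes of this kind.

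Replicates are separate pools of plants that share only a number. Named genes were the 10 reference loci, 5 predicted genes and 3 other identifiers with the highest KMD mean, the loci of the 3 largest positional groups, up to 5 genes with no read in the other 10 lines, the 2 called genes with the largest change in each direction of each comparison, and 3 genes on each side of the limits of the rule. Genes named beyond it were chosen after their values were seen. Gene classes by function were planned but no table at hand matched the identifiers, and no sequence is printed. Alternatives are in the closing section.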

Additional observations from a re-analysis of the deposited data

How the results depend on the processing

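The list depended on its limits: it held 147 genes with a minimum of 0.1 FPKM and 74 with a minimum of 1 FPKM. It held 91 with FPKM over plain read totals and 181 with at most 1 read allowed in each XS11 library. With 1 of the 9 KMD and XS11 libraries left out it held 95 to 155, the 155 being without XS11 replicate 2. The number on in T202 was 34 when 2 of 3 libraries sufficed. DEGs among the 90 genes numbered 3 to 10 in T202/JH1, 4 to 11 in T202/CJ03, 2 to 14 in CJ03/JH1, 1 to 4 in T1C-19/MH63 and 4 to 12 in HH1/MH63 with 1 library left out. With the filter lowered to 2 libraries, an alternative chosen after seeing the data, these ranges were 9 to 14, 12 to 15, 13 to 16, 3 to 4 and 8 to 12. The lower end equalled the main count in CJ03/JH1 and lay below it in the other comparisons. The part of the filter in the lost calls was not tested. In HH1/MH63 the number was 7 without a filter and 8 with voom on reads. Correlations of same-numbered libraries ran from -0.225 to 0.215 and had no common sign over the comparisons. In CJ03/JH1 all were positive, at 0.215, 0.0563 and 0.161. A fit with the replicate block gave 8 DEGs among the 90 genes in T202/JH1, 11 in T202/CJ03, 13 in CJ03/JH1, 4 in T1C-19/MH63 and 12 in HH1/MH63. Of 17 named calls, 16 kept their direction and call in all alternatives in which the gene was tested. That of predicted gene 1494 in HH1/MH63 was lost in 4 of 6 alternatives with all libraries, at adjusted p-values of 0.0547 to 0.111, and kept its direction. Over all genes, DEGs in T202/CJ03 numbered 1129 without a filter and 842 with the block, against 1715, and in T1C-19/MH63 301 without a filter, against 452. In CJ03/JH1 they numbered 1684 with the block, against 1393. With 1 library left out they numbered 836 to 1846 in T202/JH1, 546 to 2002 in T202/CJ03, 558 to 1582 in CJ03/JH1, 68 to 465 in T1C-19/MH63 and 2699 to 3468 in HH1/MH63. Voom on reads called 2400 genes in T202/JH1, 2268 in T202/CJ03, 1660 in CJ03/JH1, 675 in T1C-19/MH63 and 5158 in HH1/MH63. Where no cause is given, the cause was not tested. Depth limits the EPlOSAG genes most.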

Other observations

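The opposite set, genes on in XS11 and at 0 in all 6 KMD libraries, held 28 genes: 4 reference loci, 15 predicted genes and 9 EPlOSAG genes. Of these, 4 were on in T202, 7 in CJ03, 18 in JH1 and 4 to 6 in each XI line; the differences between lines were not tested. The 3 highest were predicted gene 35469 with an XS11 mean of 113 FPKM, predicted gene 27726 with 97.6 FPKM and EPlOSAG00000047962 with 83.2 FPKM, and none of the 3 was on in any other line. One of the 4 loci, OS08G0226800, lay 1 listed locus away from the member OS08G0226600 and had 0.703, 0.875 and 1.96 FPKM in XS11.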
